A study of Mus musculus with 13 samples.

Results

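Genes that bring glucose into cells and break it down to lactate were followed in mice with and without Hmox2, which encodes the constitutive heme oxygenase. The 10 genes were chosen by name, with no threshold on their values but with earlier results of these data known: the transporters Slc2a1 and Slc2a4, the hexokinases Hk1 and Hk2, the phosphofructokinases Pfkm and Pfkl, the aldolase Aldoa, the enolases Eno1 and Eno3, and the lactate dehydrogenase Ldha. They are 10 of the 36109 genes summed from the transcript tables, and all 10 were tested in both tissues. The study compared Hmox2-/- mice with their Hmox2+/+ littermates, both kept in room air. RNA from aortic endothelial cells (ECs) was obtained by flushing the aortic lumen with TRI Reagent, with 3 libraries per genotype. RNA from frozen whole heart is present as 4 Hmox2+/+ and 3 Hmox2-/- libraries. The study states 3 per strain for heart, and the labels do not account for the difference. The labels name no allele or driver beyond the Hmox2 genotype, the sequenced mice are described only as young, and their sex was not given in the sources used here. The series is described as matched EC and heart samples, but nothing in the labels ties an EC library to a heart library, so the tests between tissues treated the libraries as unmatched.

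Glucose enters cells through GLUT proteins. GLUT1, encoded by Slc2a1, serves basal uptake in most cells and in the endothelium, and GLUT4, encoded by Slc2a4, is moved to the surface by insulin in skeletal muscle, heart and fat. Hexokinase traps glucose as glucose 6-phosphate, phosphofructokinase commits it to glycolysis, aldolase splits the 6-carbon sugar, enolase makes phosphoenolpyruvate, and lactate dehydrogenase A turns pyruvate into lactate. Several steps have a muscle form and a widely expressed form made by separate genes: Slc2a4 and Slc2a1, Hk2 and Hk1, Pfkm and Pfkl, Eno3 and Eno1. Endothelial cells are known to rely largely on glycolysis, whereas the adult heart burns mainly fatty acids and takes up glucose and lactate as well.

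The totals per library were 26067147 to 31138642 estimated counts, except in the first Hmox2+/+ heart library, which had 7268626. Hmox2 itself was at 63.9 to 76.2 CPM, estimated counts scaled to a common library size, in Hmox2+/+ ECs and at 12.6 to 14.8 in Hmox2-/- ECs, and at 37.3 to 42.5 against 7.53 to 8.90 CPM in heart, so every library followed its label. The EC libraries held RNA of other cells. The 10 endothelial markers summed to 2369 to 3468 CPM in Hmox2+/+ and 4099 to 4992 CPM in Hmox2-/- ECs, and 8 white adipocyte markers to 3982 to 6283 and 4059 to 5042 CPM. The adipocyte hormone gene Adipoq was at 489 to 799 CPM in Hmox2+/+ and 501 to 605 CPM in Hmox2-/- ECs, and the brown adipocyte gene Ucp1 reached 1863 and 2014 CPM. Other adipocyte genes were called lower in Hmox2-/- ECs: Lep (log2 fold change -3.77), Lipe (-1.13) and Pnpla2 (-1.05), 3 of 8 on the white adipocyte list, and Cox8b (-0.77), 1 of 7 on the brown one, with none higher. Macrophage markers (7 genes) summed to 317 to 423 CPM in Hmox2+/+ and 548 to 872 CPM in Hmox2-/- ECs. The 10 cardiomyocyte markers summed to 95.6, 373 and 130 CPM in Hmox2+/+ ECs and to 4.35 to 6.86 CPM in Hmox2-/- ECs, and 10 fast skeletal muscle markers to 76.9, 14.5 and 82.9 CPM against 1.59 to 2.19 CPM. Smooth muscle markers (8 genes) summed to 2591 to 4984 CPM against 813 to 2745 CPM, while 7 fibroblast markers summed to 2378 to 4251 CPM in Hmox2+/+ ECs and 5028 to 5597 CPM in Hmox2-/- ECs. The skeletal muscle myosin gene Myh4 was at 0 in all 3 Hmox2-/- EC libraries, and no other marker of these lists was. Hmox2-/- EC libraries 2 and 3 had the Y-linked gene Ddx3y at 1.03 and 0.920 CPM, against 61.7 to 86.4 CPM in the other 4 EC libraries, and EC results are also given without them. No Hmox2+/+ EC library was that low, so in those 2 libraries sex, or another difference marked by Ddx3y, cannot be told apart from genotype. In heart Ddx3y was at 61.6 to 86.55 CPM with Hmox2 and 37.0 to 50.9 CPM without it. In heart the cardiomyocyte marker sums overlapped between genotypes, at 61230 to 70010 and 65580 to 72210 CPM. Single markers moved both ways within them. Of the 10, 4 were called higher (Myl2, Myl3, Myl7 and Tnni3) and 1, Nppa, lower (log2 fold change -1.15). Myh6 was at a mean of 18730 CPM with Hmox2 and 14470 CPM without it, and was not called (adjusted p = 0.0755). Mitochondrially encoded RNA was 37.3 to 43.9% of estimated counts in control hearts, against 22.3 to 27.0% in those lacking Hmox2. Erythroid markers (6 genes) ranged from 232 to 441 CPM in sum with Hmox2 and from 1152 to 1847 CPM without it. Marker sums were also higher, without overlap, in hearts lacking Hmox2 for endothelial cells (664 to 805 against 882 to 907 CPM) and macrophages (165 to 244 against 279 to 470). So were those of the smooth muscle list (1846 to 2192 against 2400 to 3067) and the brown adipocyte list (674 to 767 against 1110 to 2145). The smooth muscle sum in heart was mostly Des (mean 1331 against 1892 CPM), and 4 of 8 genes were called higher and 1, Smtn, lower. The brown adipocyte rise lay in Cox7a1 (284 against 682 CPM) and Cox8b (192 against 455 CPM). Dio2 was called lower (log2 fold change -1.15), and Ucp1 was at 0 in Hmox2-/- hearts. Of the endothelial list, 3 of 10 genes were called higher (Pecam1, Vwf and Emcn) and 0 lower. Cdh5, Tie1, Tek and Kdr had log2 fold changes between -0.04 and 0.09. Of the macrophage list, 4 of 7 were called higher and 0 lower. None of these sums was read as an amount of RNA of a cell type.

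The enolase coding sequences show which of the paired genes could share reads and which could not. The first 120 coding bases of Eno1 (GENCODE M39, GRCm39, chromosome 4), Eno3 (chromosome 11) and the processed pseudogene Gm4735 (chromosome 2) are written 5′ to 3′, with capitals where a base differs from Eno1.
Eno1: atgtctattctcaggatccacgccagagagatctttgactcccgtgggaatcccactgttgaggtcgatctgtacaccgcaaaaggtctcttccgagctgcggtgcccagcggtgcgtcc
Eno3: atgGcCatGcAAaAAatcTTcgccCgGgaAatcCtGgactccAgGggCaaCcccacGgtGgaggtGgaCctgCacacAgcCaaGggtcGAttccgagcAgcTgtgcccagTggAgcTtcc
Gm4735: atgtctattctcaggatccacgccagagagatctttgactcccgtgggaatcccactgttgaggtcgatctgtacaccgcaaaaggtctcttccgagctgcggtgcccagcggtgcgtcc
Eno3 differed from Eno1 at 33 of these bases. Over the whole coding sequence of 1305 bases the enolases were 76.7% identical, and their longest identical stretch was 20 bases, shorter than the 31-base words by which Kallisto assigns reads. The Gm4735 stretch was identical to Eno1, and over 1302 bases the identity was 99.6%, with an identical run of 725 bases. In total 27.8% of the words in Eno1 occurred in other genes, 17.3% of those in Aldoa and 16.4% of those in Ldha, against at most 1.21% for the other 7. Little was counted on the copies: Eno1b, with 81.8% of its words in Eno1, reached 1.29 CPM, Gm4735 1.72 CPM, and the pseudogenes of Ldha with at least 20% shared words at most 0.1 CPM. Adding the copies to Eno1 and Ldha left the members called in either tissue the same.

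Promoters are shown for Hk2, which was lower in Hmox2-/- mice in both tissues, and for Ldha, which was called in neither. RefSeq promoter windows of GRCm38.p6, 250 bases before to 50 after the start, were found for 9 of the 10 members, in 18 windows. Capitals mark ACGTG on either strand, 1 form of the core of the hypoxia response element bound by hypoxia-inducible factors. The form GCGTG, which is present in the Ldha window shown, was neither marked nor counted. The letters CACGTG read ACGTG on both strands and count as 2 occurrences. The Hk2 window lies at chr6:82774405-82774704 (minus strand) and the first Ldha window at chr7:46845554-46845853 (plus strand).
Hk2: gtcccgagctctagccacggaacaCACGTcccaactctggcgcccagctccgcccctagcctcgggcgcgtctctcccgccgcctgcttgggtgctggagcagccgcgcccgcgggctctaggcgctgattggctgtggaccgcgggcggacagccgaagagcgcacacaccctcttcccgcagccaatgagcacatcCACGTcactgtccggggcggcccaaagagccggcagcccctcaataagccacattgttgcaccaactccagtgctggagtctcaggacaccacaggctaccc
Ldha: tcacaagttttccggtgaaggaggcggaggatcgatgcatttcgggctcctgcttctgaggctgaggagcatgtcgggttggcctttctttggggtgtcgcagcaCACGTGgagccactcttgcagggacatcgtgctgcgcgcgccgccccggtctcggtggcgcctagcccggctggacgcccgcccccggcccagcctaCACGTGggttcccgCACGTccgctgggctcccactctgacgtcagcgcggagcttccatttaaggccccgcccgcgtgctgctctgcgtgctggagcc
The Hk2 window held 2 occurrences and the Ldha window 5. Of all 32851 windows, 19.6% held at least 1 and 0.183% held 5 or more. Of the 18 member windows, 8 held at least 1, from 6 members (Slc2a1, Hk1, Hk2, Pfkm, Aldoa and Ldha). The second Ldha window held 0, and ACGTG was not found on either strand in the windows of Pfkl, Eno1 and Eno3. Hif1a, which encodes the hypoxia-inducible subunit of the factor, was at 71.5 CPM in Hmox2+/+ and 82.3 CPM in Hmox2-/- ECs (adjusted p = 0.283), and fell in heart from 78.3 ± 9.92 (SD, n = 4) to 43.1 ± 1.54 CPM (n = 3; log2 fold change -0.86, SE 0.11, adjusted p = 0.000378).

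In ECs, Hk2, Pfkm and Eno3 were lower and Slc2a1 was higher in Hmox2-/- mice at an adjusted p of at most 0.05. The other 6 members were not called. A call in this direction was made for 8.06% of the 15301 genes tested for lower and 10% for higher values, against 3 and 1 of the 10 members. Hk2 and Eno3 also changed at least 2-fold in either direction, and 9.28% of all genes were called and changed that far. The median log2 fold change was -0.80 over the members, 8 of which were below 0, and -0.02 over all genes tested. In bulk RNA, fewer cells of a type and less RNA per cell cannot be told apart.

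**Figure D1:**
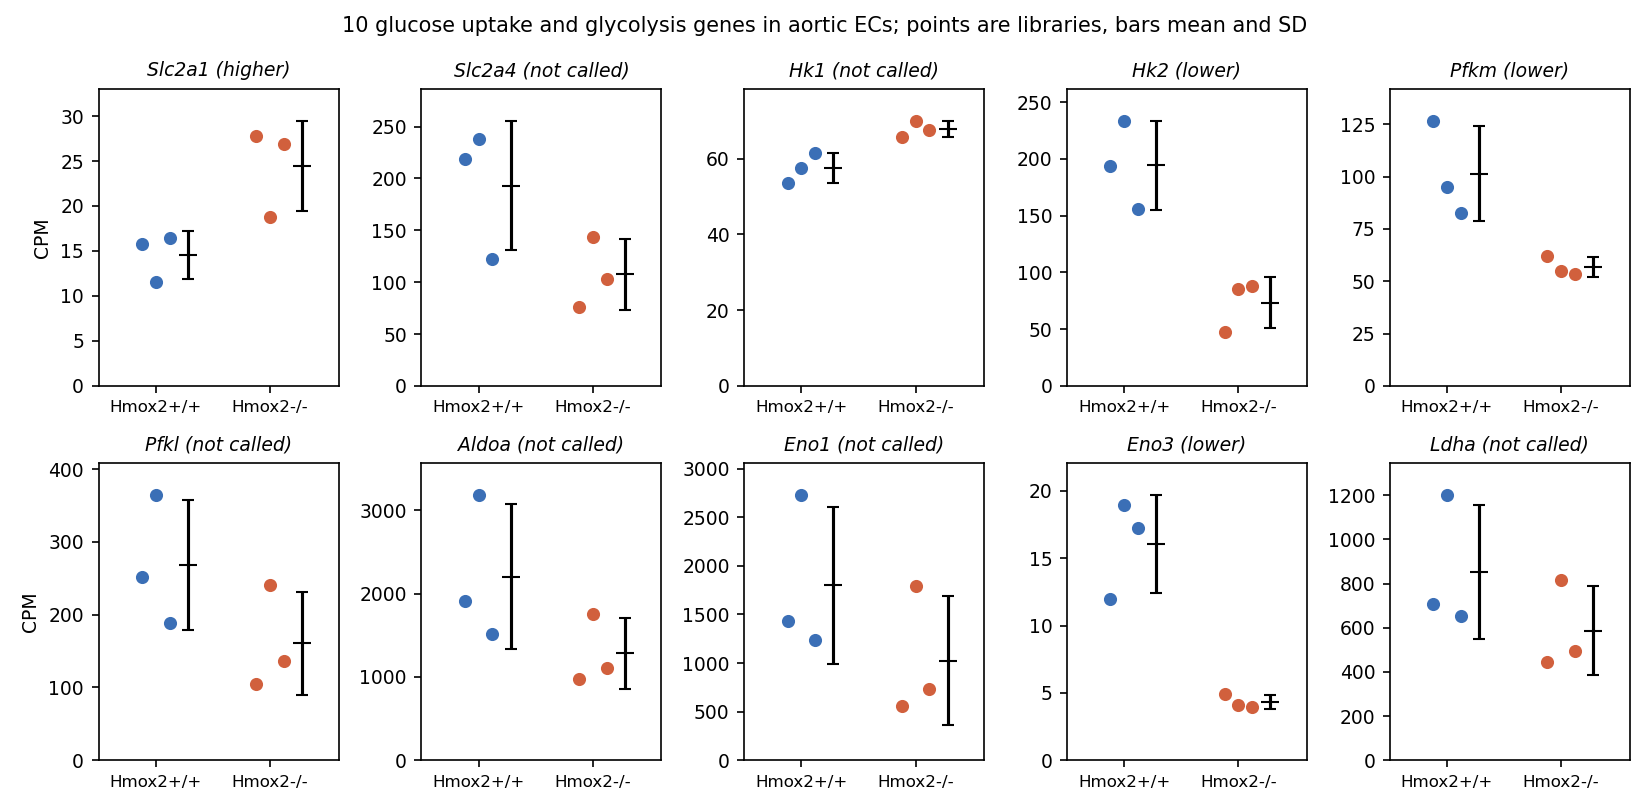
CPM of the 10 genes in each aortic EC library, with linear axes from 0, Hmox2+/+ in blue and Hmox2-/- in red; black bars are the mean and SD of 3 libraries. Hk2, Pfkm, Eno3, Slc2a1 and Hk1 did not overlap between genotypes, while Pfkl, Aldoa, Eno1 and Ldha were highest in the second library of both.

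Slc2a1 (chr4:118965908-118996365, GRCm39) was the transporter that rose in ECs. It was at 15.7, 11.5 and 16.4 CPM in Hmox2+/+ and 27.8, 18.7 and 26.9 CPM in Hmox2-/- ECs, with no overlap, as for 40.7% of all genes tested. The log2 fold change was 0.75 (SE 0.20, adjusted p = 0.0401, 3 of 3 libraries higher). The call was lost without Hmox2-/- library 1 or 3 or Hmox2+/+ library 1 or 2, with adjusted p from 0.0801 to 0.130. It was also lost with counts rebuilt from length-scaled TPM (0.67, adjusted p = 0.0837), and without Hmox2-/- libraries 2 and 3 the change was 0.94 (adjusted p = 0.224). Endothelial marker sums were also higher in Hmox2-/- ECs (5 of 10 markers called higher, 1 lower), and their part in the Slc2a1 difference was not tested. In the deposited tables, a transcript annotated for nonsense-mediated decay, Slc2a1-204, held 43.8 to 56.1% of Slc2a1 TPM in Hmox2+/+ ECs and 11.3 to 40.7% in Hmox2-/- ECs.

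Slc2a4 (chr11:69831006-69839070, minus strand) moved the other way without passing the test. It was at 219, 238 and 122 CPM in Hmox2+/+ ECs and 75.9, 143 and 103.2 CPM in Hmox2-/- ECs. The groups overlapped in Hmox2+/+ library 3, and the log2 fold change was -0.85 (SE 0.30, adjusted p = 0.0910). Per length it was the more abundant transporter even in ECs, at 92.3 ± 29.7 TPM against 5.98 ± 1.31 TPM for Slc2a1 (SD, n = 3). GLUT4 is a marker of fat and muscle rather than of endothelium, and the adipocyte and muscle marker values above belong beside it and beside Hk2. Of the 8 white adipocyte markers, 3 (Lep, Lipe and Pnpla2) were called lower in Hmox2-/- ECs and 0 higher. Retn (log2 fold change 0.51) and Cfd (0.58) were above 0 without being called, as were 4 of 7 brown adipocyte markers. The part of the adipocyte and muscle markers in the Slc2a4 and Hk2 values was not tested. Slc2a4 was called lower without Hmox2+/+ library 3 (log2 fold change -1.09, adjusted p = 0.0267).

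Of the hexokinases, Hk2 (chr6:82699740-82751469, minus strand), the insulin-responsive form of muscle and fat, fell 2.65-fold in ECs. The libraries were at 193, 234 and 156 CPM in Hmox2+/+ and 47.4, 85.2 and 87.6 CPM in Hmox2-/- mice. Every Hmox2-/- library was below every Hmox2+/+ one (log2 fold change -1.40, SE 0.26, adjusted p = 0.0140), and the call held with each library left out in turn. With length-scaled TPM counts the change was -0.79 (adjusted p = 0.0353). With only the first Hmox2-/- library the change was -2.03 (adjusted p = 0.123). Hk1 (chr10:62104621-62215687, minus strand), the widely expressed form, was at 53.6, 57.6 and 61.3 CPM against 65.7, 70.0 and 67.6 CPM. These groups did not overlap either, but the difference of 0.24 on the log2 scale (SE 0.10) was not called (adjusted p = 0.140).

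Pfkm (chr15:97990451-98031417), the muscle phosphofructokinase, was at 127, 95.0 and 82.7 CPM in Hmox2+/+ and 62.1, 54.8 and 53.6 CPM in Hmox2-/- ECs. The groups did not overlap, and the log2 fold change was -0.84 (SE 0.17, adjusted p = 0.0186). The call was lost without Hmox2-/- library 2 (adjusted p = 0.0673) or 3 (0.0805), and without both the change was -0.70 (adjusted p = 0.335). Pfkl (chr10:77818084-77845922, minus strand), the liver form, changed by nearly as much, from 252, 364 and 188 to 105, 241 and 136 CPM, but its libraries overlapped (log2 fold change -0.74, SE 0.35, adjusted p = 0.171). Pfkp, the platelet form and not among the 10, was at 87.5 ± 0.975 and 75.9 ± 10.6 CPM (n = 3 each, adjusted p = 0.279).

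The muscle enolase Eno3 (chr11:70546593-70553340) was the member that fell furthest. It was at 12, 19.0 and 17.3 CPM in Hmox2+/+ ECs and at 4.92, 4.10 and 3.97 CPM in Hmox2-/- ECs, 3.71-fold lower (log2 fold change -1.89, SE 0.21, adjusted p = 0.00322). Its call held with each library left out in turn, and the change was -1.70 with only the first Hmox2-/- library (adjusted p = 0.167). Cardiomyocyte and fast skeletal muscle markers fell in the same libraries, 9 of 10 and 9 of 9 tested being called lower, and their part in the Eno3, Pfkm and Hk2 differences was not tested. Among the Hmox2+/+ libraries, Eno3 and the cardiomyocyte sum were lowest in the first, and the skeletal muscle sum in the second. Pfkm and Hk2 were lowest in the third.

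Aldoa (chr7:126393822-126399923, minus strand), the aldolase of muscle and most other cells, was the most abundant member per length in ECs, at 1320, 3124 and 1481 TPM in Hmox2+/+ and 869, 1364 and 993 TPM in the 3 Hmox2-/- libraries. In CPM it was at 1911, 3185 and 1514 against 971, 1761 and 1113. Eno1 (chr4:150321073-150337027), the widely expressed enolase, was at 1434, 2729 and 1236 against 554, 1789 and 732 CPM. Ldha (chr7:46490899-46505061) was at 707, 1201 and 651 against 447, 817 and 494 CPM. In all 3 genes the second library was far above the rest in each genotype and the groups overlapped. Their log2 fold changes of -0.78 (SE 0.35), -0.81 (SE 0.49) and -0.54 (SE 0.32) were not called, at adjusted p = 0.156, 0.274 and 0.263.

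In heart 3 members were called. Aldoa and Eno3 were higher and Hk2 was lower in Hmox2-/- hearts, and the other 7 were not called. Among 13816 genes tested, 17.2% were called higher and 16.2% lower, so 2 and 1 of 10 members were near the background. No member was called with a change of 2-fold or more, against 6.71% of all genes. The median was 0.21 over the members and -0.01 over all genes.

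**Figure D2:**
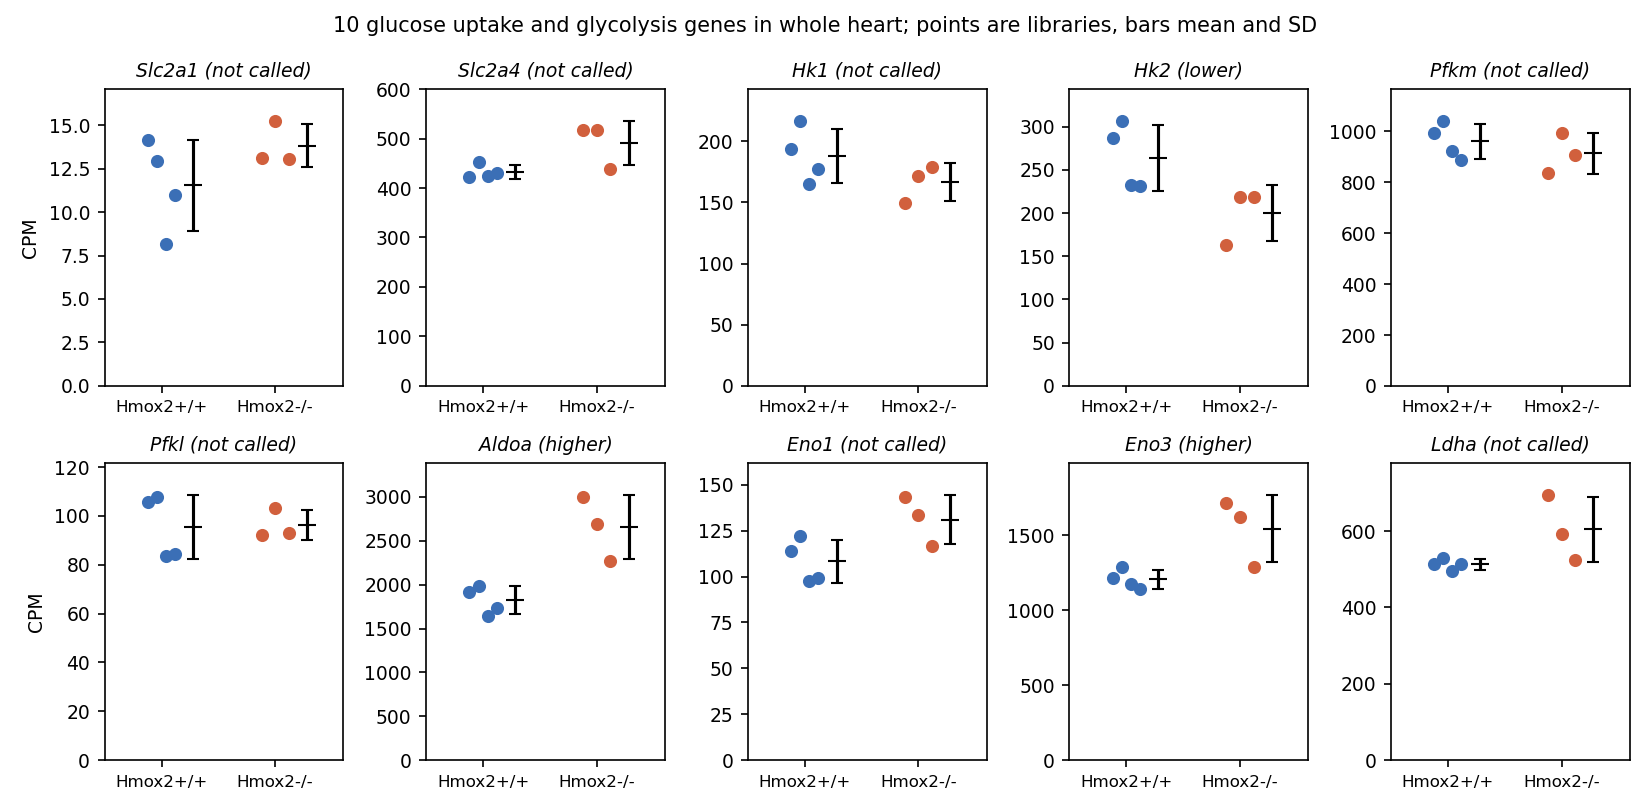
CPM of the 10 genes in each whole heart library, with linear axes from 0, Hmox2+/+ in blue (4 libraries) and Hmox2-/- in red (3 libraries); black bars are the mean and SD. Aldoa and Eno3 were higher and Hk2 was lower in every Hmox2-/- heart, and the other members overlapped.

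Aldoa was at 1922, 1986, 1642 and 1733 CPM in Hmox2+/+ hearts and at 3001, 2691 and 2272 CPM in Hmox2-/- hearts. The groups did not overlap, as for 40.4% of all genes, and the rise was 1.46-fold (log2 fold change 0.54, SE 0.12, adjusted p = 0.00596). It was called with each library left out in turn. Eno3 was at 1213, 1291, 1176 and 1143 against 1718, 1624 and 1292 CPM, where Hmox2-/- library 3 was only just above the highest Hmox2+/+ one (log2 fold change 0.36, SE 0.11, adjusted p = 0.0311). Without Hmox2+/+ library 1, 3 or 4 or Hmox2-/- library 1 or 2 it was not called, at adjusted p from 0.0694 to 0.116, and with an offset for transcript length and GC content its change was 0.05 (adjusted p = 0.586).

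Hk2 was at 286, 307, 232 and 231 CPM in Hmox2+/+ hearts and 163, 218 and 219 CPM in Hmox2-/- hearts. It fell by 0.40 on the log2 scale (SE 0.14, adjusted p = 0.0469), and the call was lost without Hmox2+/+ library 1 or 2 or Hmox2-/- library 1 or 2, at adjusted p from 0.0724 to 0.140. With the length and GC offset the change was -0.15 (adjusted p = 0.279). Hk2 was the single member called lower in both tissues. Eno1 and Ldha had positive log2 fold changes of 0.28 (SE 0.11) and 0.24 (SE 0.11) without passing the test, at adjusted p = 0.0769 and 0.108. Slc2a1, Slc2a4, Hk1, Pfkm and Pfkl lay between -0.18 and 0.28, with adjusted p from 0.160 to 0.935. Leaving out mitochondrially encoded genes kept the same 3 members called. The part of the erythroid, endothelial, smooth muscle, macrophage and brown adipocyte markers in these differences was not tested.

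**Figure D3:**
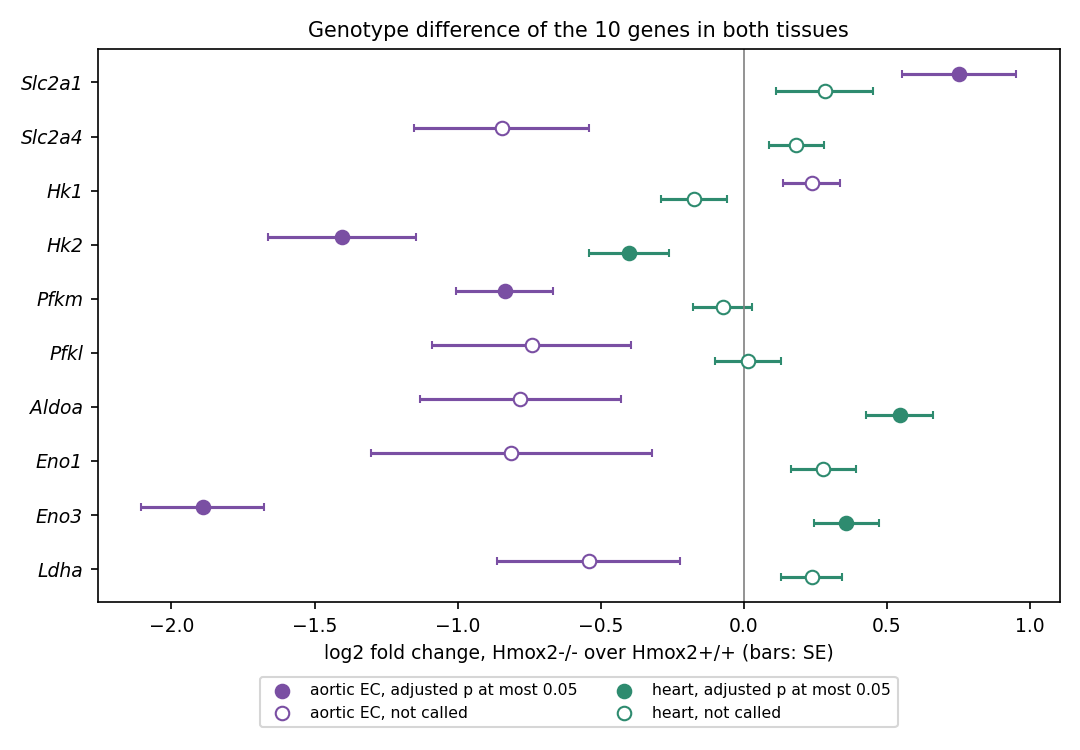
Log2 fold change of Hmox2-/- over Hmox2+/+ for the 10 genes in aortic ECs (purple) and heart (green), with SE bars from the edgeR fits; filled points passed an adjusted p of at most 0.05. Eno3 sits at -1.89 in ECs and 0.36 in heart, while Hk2 is below 0 in both.

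The genotype difference itself differed between tissues for 5 members, all with a higher value in heart, where 28.8% of 15938 genes were called in either direction. The difference of the log2 fold changes, heart minus EC, was 2.29 for Eno3 (SE 0.25, adjusted p = 7.90e-05), 1.37 for Aldoa (SE 0.37, adjusted p = 0.0149), 1.07 for Slc2a4 (SE 0.32, adjusted p = 0.0242), 1.05 for Hk2 (SE 0.31, adjusted p = 0.0214) and 0.80 for Pfkm (SE 0.22, adjusted p = 0.0164). The estimates for Eno3 and Aldoa had opposite signs in the 2 tissues, though the EC value of Aldoa was not called. Hk2 was called lower in both. Its difference between tissues was 0.45 with length-scaled TPM counts (adjusted p = 0.204), and its call was lost without Hmox2+/+ EC library 2 or Hmox2-/- heart library 2 (adjusted p = 0.0516 for each). The Slc2a4 call was lost without Hmox2+/+ EC library 1 or 2, Hmox2-/- EC library 3 or Hmox2-/- heart library 2, at adjusted p from 0.0523 to 0.0590, and the Pfkm call without Hmox2-/- EC libraries 2 and 3 together (0.67, adjusted p = 0.183). For Eno1, Ldha and Pfkl the differences of 1.13, 0.82 and 0.80 were not called (adjusted p = 0.105, 0.0828 and 0.122), and Slc2a1 and Hk1 had the reverse sign, -0.43 and -0.37, also not called (adjusted p = 0.264 and 0.119). With the length and GC offset Aldoa (0.75, adjusted p = 0.141) and Slc2a4 (0.77, adjusted p = 0.105) lost their calls.

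In Hmox2+/+ mice, heart was above ECs for Slc2a4, Hk1, Hk2, Pfkm and Eno3, and below them for Pfkl and Eno1, where 32.1% of genes were called higher and 33.7% lower. The log2 difference was 6.98 for Eno3 (SE 0.23, 126-fold), 4.0 for Pfkm (SE 0.18, 16.0-fold), 2.46 for Hk1 (SE 0.13), 1.91 for Slc2a4 (SE 0.23) and 1.19 for Hk2 (SE 0.22), with the highest adjusted p, 0.000225, for Hk2. Eno1 was 9.90-fold lower in heart (log2 difference -3.31, SE 0.36, adjusted p = 1.45e-06), and Pfkl 1.67-fold lower (-0.74, SE 0.25, adjusted p = 0.0182). The Pfkl call was lost without the second Hmox2+/+ EC library (-0.45, adjusted p = 0.132). Slc2a1 (0.40, SE 0.20), Aldoa (0.47, SE 0.26) and Ldha (0.01, SE 0.23) did not pass. Per length, Hmox2+/+ hearts held 1310 ± 226 TPM of Aldoa, 884 ± 124 of Eno3, 334 ± 38.7 of Ldha and 330 ± 51.8 of Pfkm (n = 4). The 4 lowest in heart were Hk1 (49.3 ± 10.2 TPM), Hk2 (46.0 ± 10.5 TPM), Pfkl (25.8 ± 5.84 TPM) and Slc2a1 (4.12 ± 1.5 TPM), and Ldha and Pfkm did not differ beyond their spread. The means of Hk1 and Hk2 lay within 1 SD of each other, but Hk1 was the higher in each of the 4 libraries.

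The share of the muscle form in each pair sets the isoforms against each other within a library, on the TPM scale. Eno3 made up 92.0 ± 0.387% of Eno3 and Eno1 TPM in Hmox2+/+ hearts (n = 4) and 92.5 ± 0.712% in Hmox2-/- hearts (n = 3), but 1.49 ± 0.589% and 0.950 ± 0.490% in ECs (n = 3 each). Pfkm made up 92.8 ± 0.540% and 92.4 ± 0.384% of its pair in heart, and 33.9 ± 7.5% and 33.3 ± 10.1% in ECs. Slc2a4 was 97.9 ± 0.709% and 97.8 ± 0.105% in heart and 93.3 ± 3.25% and 84.0 ± 7.02% in ECs. These 3 pairs overlapped between genotypes in both tissues when all transcripts were summed.

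**Figure D4:**
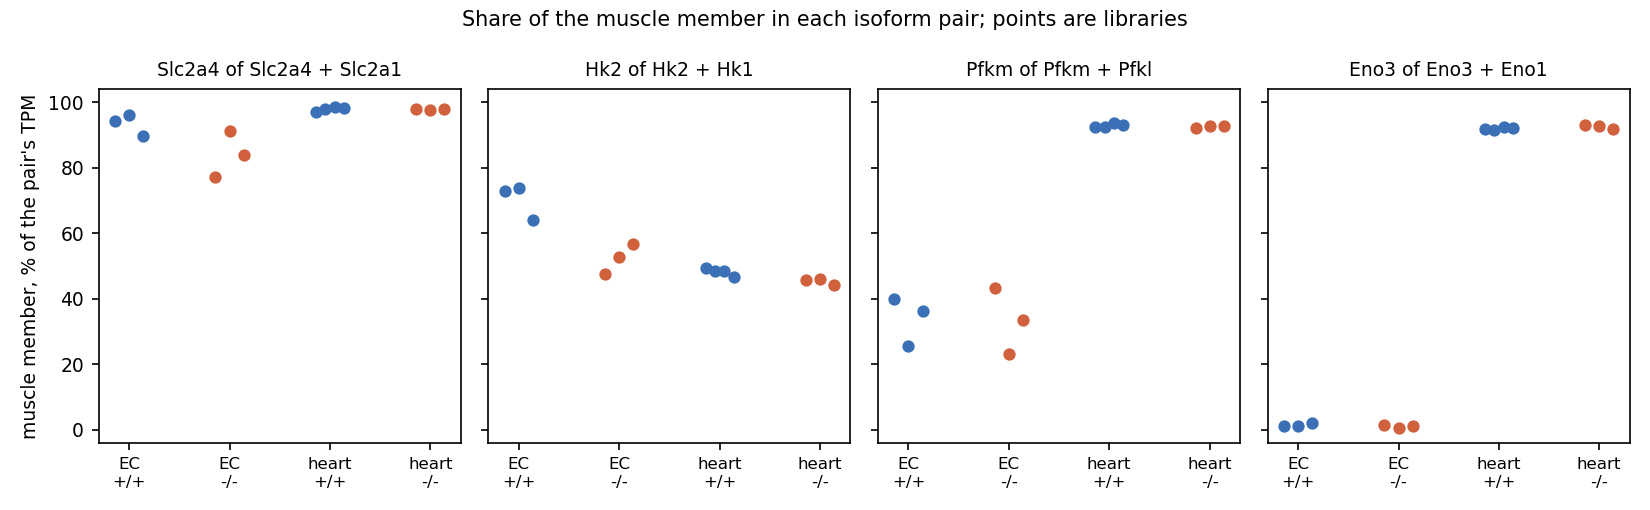
Percent of each isoform pair's TPM held by the muscle member, in each library of aortic ECs and heart, Hmox2+/+ in blue and Hmox2-/- in red. The Hk2 share did not overlap between genotypes in either tissue, and the Eno3 share was near 92% in heart and under 2.2% in ECs.

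Hk2 was the pair whose shares separated. It held 72.8, 73.7 and 64.0% of Hk2 and Hk1 TPM in Hmox2+/+ ECs and 47.4, 52.8 and 56.7% in Hmox2-/- ECs. In heart it held 49.3, 48.5, 48.3 and 46.5% against 45.8, 46.1 and 44.1%. A two-sided exact permutation test of the log2 ratio gave p = 0.1 in ECs, the smallest that 3 against 3 libraries allow, and p = 0.0571 in heart, where 4 against 3 allow 0.0286. Over the 4 pairs of a tissue the adjusted p was 0.4 and 0.229, so no pair passed in this design. In ECs none could pass, because the smallest p lies above 0.05, so that test cannot decide whether the EC ratios changed.

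Transcript assignments bear on these TPM ratios. In Hmox2-/- ECs, Hk2-202, a transcript of 594 bases with no defined coding sequence, took 28.3 to 49.1% of Hk2 TPM from 66.3 to 94.1 estimated counts, whereas the coding Hk2-201 had 1244 to 2288. Taking the leading transcript of each member alone, an alternative chosen after seeing the data, the log2 Hk2/Hk1 ratio changed by -1.78 in ECs rather than -1.11. On that basis the Eno3/Eno1 ratio changed by -3.0 in ECs rather than -0.76 and the Slc2a4/Slc2a1 ratio by -2.05 rather than -1.43, and these 3 pairs did not overlap in ECs (exact permutation, adjusted p = 0.133 for each). With 3 against 3 libraries this test could not reach 0.05. Eno3 counts in Hmox2-/- ECs were divided between Eno3-201 and Eno3-206 differently in each library, with Eno3-201 at 2.65 to 74.9% of Eno3 TPM. Eno1-205, of 773 bases, took 43.6% of Eno1 TPM in Hmox2+/+ hearts and 0.0755% in Hmox2+/+ ECs. The Pfkm transcript Pfkm-205 held 9.25 to 32.7% of Pfkm TPM in Hmox2+/+ ECs and at most 5.53% in Hmox2-/- ECs. Gene sums of counts, on which the calls rest, add these transcripts together.

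The rest of the pathway was read from 51 further genes for transport, glycolysis, lactate, glycogen and their regulators. In ECs, 49 were tested, and 7 were called lower and 0 higher by edgeR, where 8.06% of all genes were lower and 10% higher. At an unadjusted p under 0.05, 18 were lower and 0 higher, a threshold for which no share over all genes was counted. DESeq2 called 12 lower and 0 higher, where it called 4033 of 15292 genes in either direction. Pgam2, the muscle phosphoglycerate mutase, was lowest relative to control, from 5.70 ± 1.46 to 0.421 ± 0.164 CPM (n = 3, log2 fold change -3.75, SE 0.39, adjusted p = 0.00268). Aldoc, the brain aldolase, fell from 1.22 to 0.354 CPM (-1.77, adjusted p = 0.0263). In Hmox2-/- ECs the libraries held 7 to 15 estimated counts of Pgam2 and 7 to 11 of Aldoc. Of 12 glycogen genes tested, 3 were called lower: the muscle glycogen phosphorylase Pygm from 9.66 to 4.04 CPM (-1.26, adjusted p = 0.0140), the glycogen synthase Gys1 from 142 to 63.6 CPM (-1.15, adjusted p = 0.0189) and the phosphoglucomutase Pgm1 from 80.2 to 47.1 CPM (-0.77, adjusted p = 0.0384). Akt2, a kinase of insulin signalling, and Mef2d, a muscle transcription factor, were lower by 0.80 and 0.56 on the log2 scale (adjusted p = 0.0400 and 0.0305). Of these 7, only the Pgam2 call held with each library left out in turn. Pygm lost its call without Hmox2-/- library 2 or 3. Gys1 lost it without any single Hmox2-/- library, as did Aldoc, Pgm1, Akt2 and Mef2d. With the length and GC offset Pgm1, Akt2 and Mef2d were not called. The part of the muscle markers in the Pgam2 and Pygm differences was not tested. With only the first Hmox2-/- library, where few genes pass, none of the 7 was called, but the log2 fold changes stayed below 0, at -4.50 for Pgam2, -1.63 for Aldoc, -1.25 for Gys1, -1.05 for Pygm, -0.84 for Mef2d, -0.75 for Akt2 and -0.63 for Pgm1. Pkm, the pyruvate kinase of most tissues, shared 22.8% of its words with other genes and was at 1292 ± 380 and 635 ± 265 CPM (adjusted p = 0.0739).

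In heart 47 of the 51 were tested, 12 were called higher and 7 lower, where 17.2% of all genes were higher and 16.2% lower. Counting the members, 8 of 17 glycolytic enzymes tested were higher and 1, Hk2, was lower, with a median log2 fold change of 0.35 over the list and -0.01 over all genes. In ECs 5 of 18 were lower and 0 higher, with a median of -0.75. The higher enzymes in heart were mostly those after the aldolase step: Tpi1 (log2 fold change 0.42, or 0.16 and not called with the length and GC offset), Gapdh (0.59, with 49.2% shared words), Pgk1 (0.35, with 54.7% shared words), Pgam1 (0.79, with 36.7% shared words), Pgam2 (0.39) and Eno3, with Gpi1 (0.35) and Aldoa above them. Gapdh went from 2540 ± 87.2 (n = 4) to 3829 ± 512 CPM (n = 3, adjusted p = 0.00264). Ldhb, the heart form of lactate dehydrogenase, with 28.9% shared words, rose from 1229 ± 37.3 to 1585 ± 137 CPM (0.37, SE 0.10, adjusted p = 0.0138), and Bsg, the chaperone of lactate transporters, from 742 to 1098 CPM (0.57, adjusted p = 0.00608). Pkm was at 933 ± 59.6 and 984 ± 106 CPM (adjusted p = 0.5995).

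**Figure D5:**
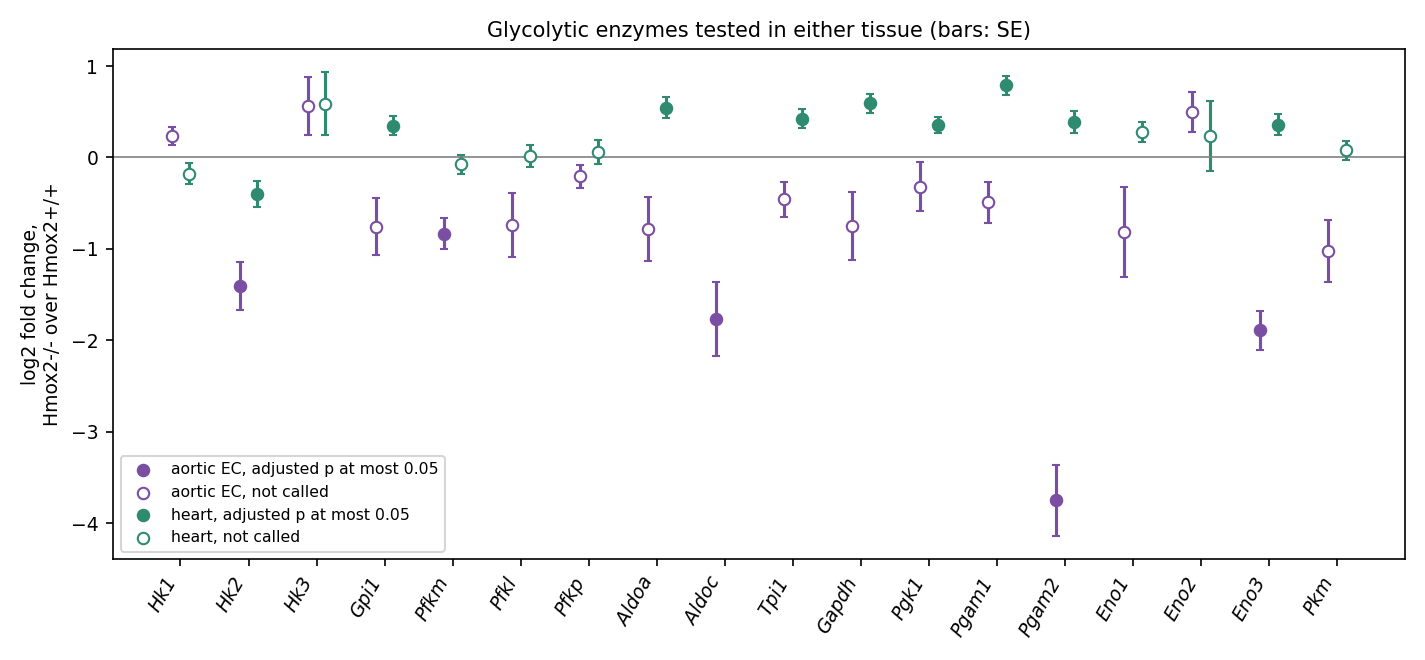
Log2 fold change of Hmox2-/- over Hmox2+/+ with SE for the glycolytic enzymes tested in aortic ECs (purple) or heart (green), in pathway order; filled points passed an adjusted p of at most 0.05. Pgam1 stands at 0.79 in heart, and Pgam2 at 0.39 in heart and -3.75 in ECs.

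Genes of glycogen breakdown and insulin signalling were among those called lower in heart. Pygl, the liver glycogen phosphorylase, fell from 19.6 ± 5.99 to 6.77 ± 0.701 CPM (-1.56, SE 0.21, adjusted p = 0.000584). The insulin receptor Insr (-0.67), its substrate Irs2 (-0.98), the muscle transcription factors Mef2a (-0.61) and Mef2d (-0.38), and the brain glycogen phosphorylase Pygb (-0.57) were also lower, at adjusted p from 0.000164 to 0.0218, though Insr was at -0.17 and not called with the length and GC offset (adjusted p = 0.177), whereas Akt2 (0.41), Tigar (0.40), Tbc1d1 (0.39) and Gbe1 (0.31) were higher.

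The genes whose levels ran closest to the muscle members over all 13 libraries were found by the root mean square difference of log2 CPM, centred per gene, among 13415 genes. For Slc2a4 these were Trp53inp2 (0.16), Mdh1 (0.20) and Cox10 (0.21), and for Pfkm they were Rtn2 (0.15), Usp28 (0.18) and Slc4a3 (0.23). For Eno3, which spans the widest range, they were Ank1 (0.32), Asb10 (0.42) and Usp13 (0.44), and for Ldha Letm1 (0.20), Txnrd2 (0.20) and Nudt7 (0.21). The likeness rests largely on the distance between the 2 tissues for Slc2a4, Pfkm and Eno3.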

How the data were processed

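Poly(A) RNA of 13 libraries was sequenced in paired ends. Estimated counts per transcript are as the authors deposited them, from kallisto 0.44.0 run with default parameters on each library. The deposited TPM values came from the same runs. The methods name GENCODE M32 (GRCm39), while the submitters' processing notes list mm10 and GRCh38.p13. Default parameters do not use the strand. Transcripts were matched here by stable identifier to GENCODE M39 (115140 of 118489), and counts and TPM were summed per gene, the counts rounded. Rows without a match held 0.755 to 1.01% of counts.

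After filterByExpr (minimum count 10) and TMM scaling, gene counts entered the quasi-likelihood test of edgeR 4.0.16 (R 4.3.3) with Benjamini-Hochberg adjustment over all genes, within each tissue, and in 1 fit of 13 libraries for tissues and the tissue by genotype interaction. CPM values are on the scale of each tissue's fit, and marker sums, and the Adipoq and Ucp1 values, on that of all 13. Isoform ratios were tested by exact permutation. Biological coefficients of variation were 0.241 (ECs) and 0.149 (heart). Counts were simulated with 200 genes changed by 2 on the log2 scale and the same coefficient of variation for every gene. There edgeR recovered 189 in ECs (15301 genes, 7 false calls), 196 in heart (13816, 3 false) and 171 for the interaction (15938, 9 false). The members called in ECs and heart changed by less than 2, and recovery of such changes was not measured. DESeq2 1.42.0 and other settings served as alternatives. Nothing says that replicates were more than separate samples of a group, so p-values measure the spread between these samples.

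The 10 members, gene lists and tests were chosen with earlier results of these data known. Named were the members, Hmox2, Ddx3y, up to 12 called pathway genes per tissue by size of change, Ldhb, Pfkp, Gapdh and Pkm, copies sharing at least 20% of 31-base words with at least 1 CPM, and the 3 genes most like Slc2a4, Eno3, Pfkm and Ldha. Genes called in heart beyond the first 12, and single markers, were named after their values were seen. Some pathway genes are not reported here.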

Additional observations from a re-analysis of the deposited data

Results flagged for a closer look

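The difference between tissues in the genotype effect passed the interaction test for 5 of the 10 genes, where 28.8% of all 15938 genes passed it. Apart from Eno3, each of the 5 lost its call under some of the settings given above. The log2 fold change in heart minus that in ECs was 2.29 for Eno3, 1.37 for Aldoa, 1.07 for Slc2a4, 1.05 for Hk2 and 0.80 for Pfkm. No gene had a single Hmox2+/+ heart library standing apart by Dixon's criterion, the one group of 4 libraries that could be tested.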

How the results depend on the processing

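Direction and call were kept by Hk2 and Eno3 in ECs and the 5 members called higher in Hmox2+/+ heart than in Hmox2+/+ ECs, under every alternative run except the removal of Hmox2-/- EC libraries 2 and 3 together. That removal left 0 of 10 members (1 higher and 5 lower at an unadjusted p under 0.05) and 0 other pathway genes called in ECs, where 49 of 16390 genes passed with 1 library in that arm. Fitting all 13 libraries called 7 members in ECs and 0 in heart (2 higher at an unadjusted p under 0.05), with 17 and 10 other pathway genes. That fit called 4319 of 15938 genes in ECs and 3819 in heart. DESeq2 called 12 other pathway genes in ECs, where it called 4033 of 15292 genes. The length and GC offset left 1 member called in heart, where 3507 of 13816 genes were called. Requiring a 2-fold change left 2 members in ECs and 0 in heart. The cause of these shifts was not tested.

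Same-numbered libraries deviated together with correlations of 0.033 to 0.156 in ECs and -0.013 to 0.072 in heart, so the numbers were not taken as pairs. A replicate block called 5 members in ECs (2716 of 15301 genes called) and 1 in heart (2899 of 13816). It called 12 other pathway genes in ECs and 10 in heart, and 2 isoform pairs in ECs kept 1 direction in all 3 pairs of libraries. The block joined with the offset, added after seeing the data, left 0 members (1 higher at an unadjusted p under 0.05) and 11 other pathway genes in heart. There 2015 of 13816 genes were called.

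Leaving out 1 library at a time gave 2 to 5 members in ECs. There were 2 without Hmox2-/- library 3 (638 of 15679 genes called) and 5 without Hmox2+/+ library 3 (3596 of 15688). In heart there were 1 to 6, with 6 without Hmox2-/- library 3, where 5686 of 14098 genes were called. Just 1 was called without Hmox2-/- library 1 or 2 or Hmox2+/+ library 1 (2888 to 3737 genes called). Interactions numbered 3 to 8. There were 3 without Hmox2+/+ EC library 2 (3894 of 16311 genes) or Hmox2-/- heart library 2 (3494 of 16437), and 8 without Hmox2-/- EC library 2 (3677 of 16386). Other pathway genes in ECs numbered 1 to 17 (1 without Hmox2-/- library 3, 17 without Hmox2+/+ library 3), and 1 to 2 isoform pairs separated in each tissue. Leading transcripts alone, also added later, separated 3 pairs in ECs and 2 in heart, with log2 ratio changes of -3.0 for Eno3/Eno1, -2.05 for Slc2a4/Slc2a1 and 0.23 for Pfkm/Pfkl in ECs, 0.0776 for Slc2a4/Slc2a1 and -0.0413 for Eno3/Eno1 in heart.

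Values near 0 changed sign. Pfkl in heart was -0.0195 with length-scaled TPM, -0.0319 with the block and -0.0474 to 0.0919 with a library left out. Ldha in heart was -0.0384 with the offset and -0.0417 with the block and offset. Ldha between tissues was -0.0318 with DESeq2, -0.13 with upper-quartile scaling, -0.00063 with no filter, -0.0271 without mitochondrial genes, -0.0253 with Hmox2+/+ libraries alone and -0.15 to 0.35 with a library left out. The Pfkm/Pfkl ratio in ECs ran from -0.38 to 0.29 and Slc2a4/Slc2a1 in heart from -0.29 to 0.0849. Depth was lowest in the first Hmox2+/+ heart library, at 7268626 counts.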
